A study of Mus musculus with 22 samples.

Results

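The S100A genes encode small calcium-binding proteins of the S100 family. The 9 members described here are S100a1, S100a4, S100a6, S100a8, S100a9, S100a10, S100a11, S100a13 and S100a16, taken as a list of names and found in the deposited tables by matching Ensembl identifiers to symbols of the mouse GENCODE M21 annotation. All 9 were among the 21995 genes of the tables. Gene expression was measured by bulk RNA-seq of whole mouse spinal cord, with the question of how normal aging and a model of amyotrophic lateral sclerosis (ALS) change transcription in this tissue. Aging was compared between 8 old and 8 young libraries, and ALS between 3 G93a and 3 control libraries.

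All mice were of the C57BL/6 strain and received no treatment named in the labels. The young group was wild type, male and 3 to 4 months old, and the old group was wild type, male and 18 to 24 months old. Their libraries were made by Roche KAPA HyperPrep. The G93a group carried many copies of a transgene for human SOD1 with the G93a change and was symptomatic at 5 to 6 months. Its control group was wild type at 5 to 6 months, and both were prepared with Illumina TruSeq. Each of these groups held 2 females and 1 male, and the sex of a given library is not stated. The libraries of the young group held 5078092 to 9358055 counts (median 7957405.5) and those of the old group 5664869 to 9145600 (median 7305629.5). The control libraries held 10693060 to 13219797 counts and the G93a libraries 9675610 to 11872431. A floor of 3 counts corresponded to 0.321 to 0.591 CPM by total counts (the CPM of genes below use TMM library sizes) in young, 0.328 to 0.53 in old, 0.227 to 0.281 in control and 0.253 to 0.31 in G93a libraries, which covers counting error only.

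S100 proteins carry EF-hand calcium sites, mostly act as dimers, and on binding calcium expose a surface that holds target proteins such as annexins, myosin heavy chains and ion channels. Some are released from cells and act on receptors such as Ager and Tlr4. In the nervous system the family is best known for S100b of astrocytes, while S100a8 and S100a9 are known from neutrophils and monocytes.

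In old spinal cord, 6 members passed the filter on low counts and all 6 were higher than in young spinal cord. S100a6 and S100a11 rose most among them, by a log2 fold change of 2.11 ± 0.19 (SE) and 1.62 ± 0.11, and S100a1, S100a10, S100a13 and S100a16 rose by 0.34 to 0.67. Of all 13647 genes tested in this comparison, 13.5% were higher and 12.9% lower at an adjusted p under 0.05 (edgeR quasi-likelihood test, Benjamini-Hochberg adjustment over all genes). With a log2 fold change over 1 as well, 2 of the 6 members and 2.18% of all genes were called higher. In G93a spinal cord, 7 members passed the filter and all 7 were higher than in control, led by S100a4 at 4.76 ± 0.32, S100a6 at 3.57 ± 0.29 and S100a11 at 2.94 ± 0.28. S100a4, with 7, 7 and 11 counts in control, passed the filter by its G93a libraries. With no filter on low counts it was at 4.75 ± 0.31 (adjusted p = 6.8e-06, edgeR). Of the 14386 genes tested in ALS, 18.4% were higher and 15.5% lower, or 2641 and 2236 genes. With 1 ALS library left out, both directions together gave 2353 to 6648 genes. With a log2 fold change over 1 the call was met by 6 of the 7 members, S100a4 among them, and by 8.5% of all genes.

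The median log2 fold change over the tested members was 0.58 in aging and 1.59 in ALS, beside medians over all tested genes of -0.0027 and 0.0031. The ALS median includes S100a4, which the aging median lacks, so that these medians cover different members. S100a8 and S100a9 were near 0 counts in every group and did not pass the filter in either comparison. In a bulk sample, a change in the number of cells that make a transcript and a change in the amount per cell cannot be told apart.

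One old library stood apart from the other 7 for part of the family. It had the largest share of counts on its 10 most abundant genes among all 22 libraries, 15.1% against 8.01% to 11.9% in the other old libraries, and the fewest genes with any count, 15716. Of the 297 genes higher in old mice with a log2 fold change over 1, 220 (74.1%) had their lowest old value in this library. S100a4, S100a6 and S100a10 had their lowest old value there, whereas S100a1 had the second highest old value in it and S100a11 the second lowest. S100a4 missed the filter in the aging comparison because this library held only 9 of its counts. Its marker sums differed as well, with the highest neuron sum of the old libraries (4055 CPM, others 2803 to 3462), the highest Hox sum (200 CPM, others 118 to 163) and the lowest sums of microglia and astrocyte markers. Gfap was at 1999 CPM in it, within the young range of 1654 to 2164 and below the 2589 to 3371 of the other old libraries. The low astrocyte sum rested on Gfap, and the other astrocyte markers together were highest in this library among the old ones. The tests of S100a4 and S100a6 are therefore given with and without this library, and so are the levels of S100a6.

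**Figure D1:**
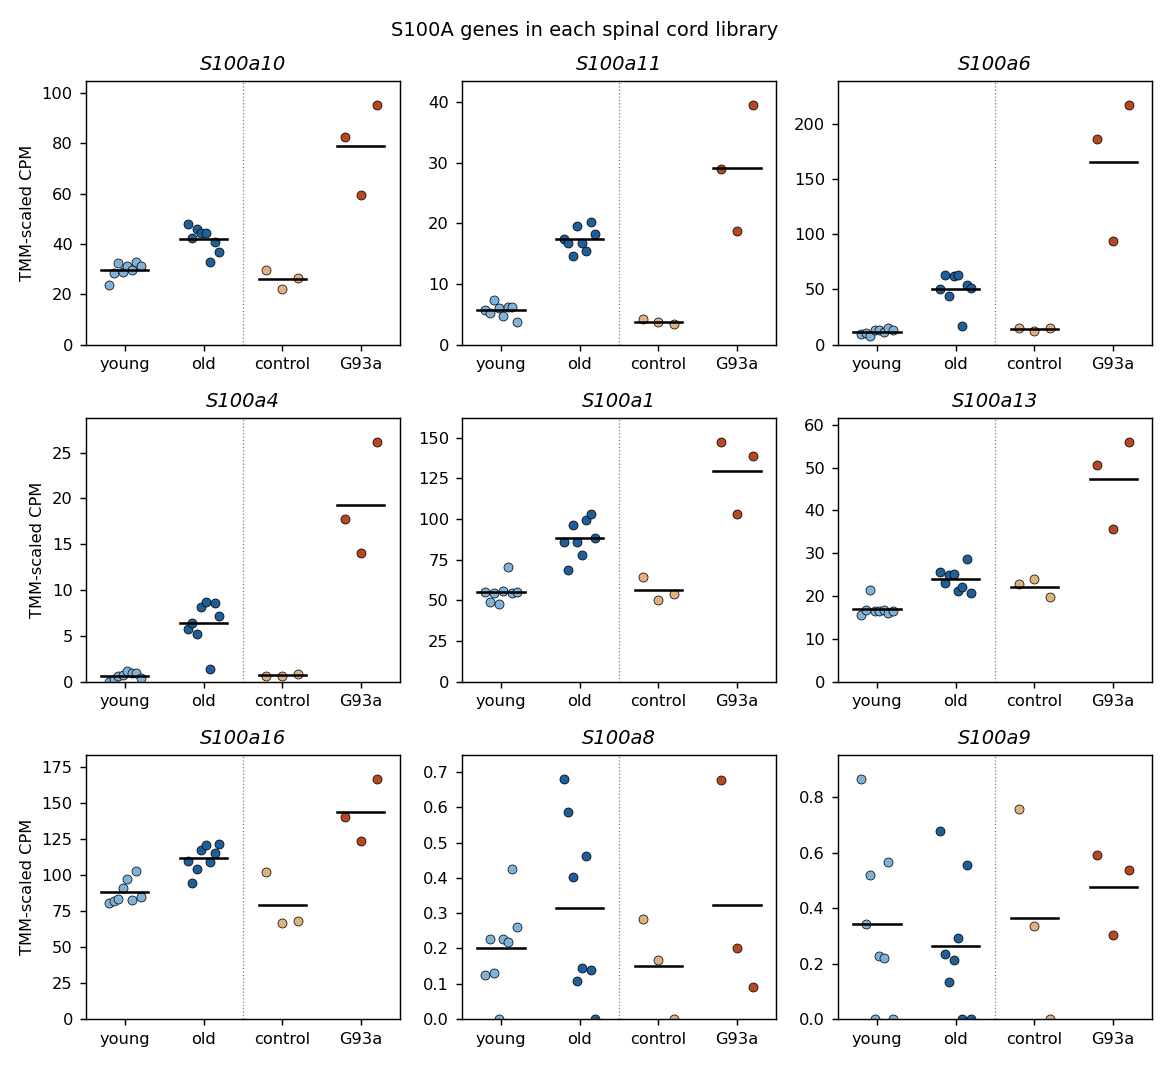
Each panel shows 1 member, with a point for each library (CPM scaled by TMM library sizes, linear axis from 0), a bar for the group mean, and a dotted line between the aging and the ALS experiment. The 3 G93a points lie above all control points in the first 7 panels, and the old library that stands apart is the low blue point of S100a6 (16.8 CPM) and S100a4 (1.39 CPM).

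S100a10 and S100a11 are the annexin-binding members. S100a10, which has lost calcium binding and pairs with Anxa2 at the plasma membrane, is ENSMUSG00000041959 at chr3:93555080-93564643 on the plus strand of GRCm38. Its level ran from 23.6 to 32.9 CPM (median 30.5) in young and from 33.0 to 47.7 CPM (median 43.3) in old libraries. It was 29.8, 22.2 and 26.7 CPM in the control and 82.5, 59.3 and 95.2 CPM in the G93a libraries. The groups did not overlap in either comparison, although the lowest old library lay within 0.1 CPM of the highest young one. The log2 fold change was 0.50 ± 0.08 (adjusted p = 3.31e-05) in aging and 1.59 ± 0.18 (adjusted p = 0.000497) in ALS, both by edgeR.

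S100a11, a partner of Anxa1 known from keratinocytes and from membrane repair, is ENSMUSG00000027907 at chr3:93520488-93526287 on the plus strand. Its level ran from 3.79 to 7.4 CPM (median 5.85) in young and from 14.7 to 20.1 CPM (median 17.1) in old libraries. It was 4.27, 3.7 and 3.38 CPM in control and 28.9, 18.7 and 39.5 CPM in G93a libraries. Every old library lay above every young one, the library that stood apart included, and every G93a library above every control one. The log2 fold change was 1.62 ± 0.11 (adjusted p = 1.49e-10) in aging and 2.94 ± 0.28 (adjusted p = 0.000241) in ALS by edgeR. Over all genes tested, 3.66% in aging and 25.7% in ALS had every library of the old or G93a group above every library of its reference group. Of the tested members, 3 of 6 in aging and 7 of 7 in ALS did.

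Promoter windows of 250 bases before to 50 after the start were read for the members from RefSeq on GRCm38.p6. They were found for 8 of 9 members, with 9 windows in all, and S100a10 had none. Both strands were searched for the TATA box (TATAAA), the CCAAT box (CCAAT), the GC box (GGGCGG), the AP-1 motif (TGANTCA) and the STAT motif (TTCNNNGAA), and capitals in the sequences mark every match. No match in the windows printed here overlapped another. Of all 32851 windows in the table, 13.6% held the TATA box, 37.4% the CCAAT box, 35.7% the GC box, 7.81% the AP-1 motif and 8.3% the STAT motif. The S100a11 window is shown because this member moved in both comparisons in every library. It lies at chr3:93520246-93520545 on the plus strand and holds 3 GC boxes, at positions -64, -52 and -24 from the start, and 2 AP-1 motifs, at -136 and -38.
S100a11: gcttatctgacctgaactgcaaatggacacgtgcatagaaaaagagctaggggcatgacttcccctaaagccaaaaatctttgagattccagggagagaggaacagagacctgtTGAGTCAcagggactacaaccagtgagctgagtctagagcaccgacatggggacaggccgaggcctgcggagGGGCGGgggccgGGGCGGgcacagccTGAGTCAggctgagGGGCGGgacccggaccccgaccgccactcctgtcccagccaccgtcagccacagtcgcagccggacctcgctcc
The AP-1 motif was found in windows of 2 members, S100a11 and S100a16, and the STAT motif in none of the 9 windows. These matches describe letters and say nothing of binding.

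S100a6 and S100a4 showed the largest changes. S100a6, also called calcyclin, binds Cacybp and was first known from cells entering division. It is ENSMUSG00000001025 at chr3:90612882-90624181 on the plus strand. Its level ran from 8.04 to 14.8 CPM (median 12.3) in young and from 16.8 to 63.2 CPM (median 53.1) in old libraries. The lowest old value was that of the library that stood apart, and the next lowest was 44.3 CPM, so that the groups did not overlap with or without it. The level was 14.9, 12.3 and 14.8 CPM in control and 187, 94.1 and 217 CPM in G93a libraries. All 3 G93a libraries lay far above control, and the lowest of them was also the lowest of the 3 for the other 6 members tested. The mean CPM was 4.28 times higher in old than in young (4.69 times without the library that stood apart) and 11.9 times higher in G93a than in control libraries. By edgeR the log2 fold change was 2.11 ± 0.19 (adjusted p = 1.2e-08) in aging, 2.24 ± 0.10 (adjusted p = 3.84e-14) without the library that stood apart, and 3.57 ± 0.29 (adjusted p = 0.000158) in ALS.

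S100a4, a binding partner of the non-muscle myosin heavy chain Myh9 that is known from motile cells, is ENSMUSG00000001020 at chr3:90603771-90606045 on the plus strand. Its counts ran from 0 to 10 (median 4.5) in young and from 9 to 77 (median 48.5) in old libraries, or from 0 to 1.13 CPM (median 0.713) and from 1.39 to 8.75 CPM (median 6.81). The next lowest old library held 5.25 CPM, so that all 8 old libraries, the one that stood apart included, exceeded the young ones. Control libraries held 7, 7 and 11 counts (0.664, 0.589 and 0.845 CPM), and G93a libraries 209, 140 and 292 counts (17.7, 14.1 and 26.1 CPM). From a level near the floor of the depth in control tissue, the gene was 27.6 times higher in mean CPM in G93a tissue, a log2 fold change of 4.76 ± 0.32 (adjusted p = 8.14e-05, edgeR). In aging, where it missed the filter, the same test with no filter on low counts gave 3.26 ± 0.34 (adjusted p = 1.05e-07 over 18634 genes). It was past the threshold in all 13 alternatives that tested it, with log2 fold changes from 2.57 to 3.44 and adjusted p from 7.67e-18 to 1.62e-06, and without the library that stood apart it was 3.42 ± 0.27 (adjusted p = 7.25e-10). S100a4 shares 302 exon bases with Gm42674 on the same strand, and reads there could be split between both genes. Gm42674 held 4 counts in the old library that stood apart, where S100a4 held 9, and 2 counts in each of 2 young libraries, where S100a4 held 10 and 7. The level of S100a4 is uncertain by these counts, which are a large share of it in these libraries. Elsewhere Gm42674 held 3 counts in 1 old and 1 G93a library, beside 60 and 140 of S100a4, and 0 in the rest.

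The promoters of S100a4 and S100a6 are shown because these neighbours rose most. That of S100a4 lies at chr3:90603520-90603819 on the plus strand, with a TATA box at -31. That of S100a6 lies at chr3:90612644-90612943 on the plus strand, and its single match is a CCAAT box read from the other strand at -228.
S100a4: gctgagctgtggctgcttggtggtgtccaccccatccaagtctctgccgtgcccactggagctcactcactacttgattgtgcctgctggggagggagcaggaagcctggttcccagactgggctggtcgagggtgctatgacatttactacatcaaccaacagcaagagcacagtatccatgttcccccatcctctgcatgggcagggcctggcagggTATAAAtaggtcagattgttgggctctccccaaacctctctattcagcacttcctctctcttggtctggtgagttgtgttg
S100a6: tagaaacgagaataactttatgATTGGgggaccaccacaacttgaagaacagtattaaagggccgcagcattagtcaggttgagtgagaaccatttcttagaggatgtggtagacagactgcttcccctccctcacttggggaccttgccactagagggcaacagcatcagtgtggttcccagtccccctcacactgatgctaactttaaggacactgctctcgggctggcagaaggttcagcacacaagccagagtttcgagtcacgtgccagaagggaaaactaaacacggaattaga
Among the searched motifs the windows had none in common, although both genes changed in the same direction in both comparisons.

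S100a1, S100a13 and S100a16 were among the more abundant members in young tissue or changed least. S100a1, a modulator of ryanodine receptors and the calcium pump Atp2a2 in heart and skeletal muscle, is ENSMUSG00000044080 at chr3:90511034-90514392 on the minus strand. Its level ran from 48.1 to 70.3 CPM (median 54.9) in young and from 68.9 to 103 CPM (median 87.1) in old libraries. It was 64.6, 50.4 and 53.8 CPM in control and 147, 103 and 139 CPM in G93a libraries. In aging 7 of 8 old libraries exceeded all young ones, and the overlap came from 1 young library at 70.3 CPM and 1 old library at 68.9 CPM, while the ALS groups were separate. The log2 fold change by edgeR was 0.67 ± 0.08 (adjusted p = 1.08e-06) in aging and 1.21 ± 0.15 (adjusted p = 0.000764) in ALS.

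S100a13, which takes part in the release of Fgf1 and Il1a without a signal peptide, is ENSMUSG00000042312 at chr3:90514435-90524581 on the plus strand. Its level ran from 15.6 to 21.5 CPM (median 16.6) in young and from 20.6 to 28.6 CPM (median 24.0) in old libraries, and it was 22.9, 23.9 and 19.7 CPM in control and 50.5, 35.8 and 56.0 CPM in G93a libraries. Of the old libraries 6 of 8 exceeded all young ones, and all 3 G93a libraries exceeded control. Its log2 fold change by edgeR was 0.49 ± 0.08 (adjusted p = 6.13e-05) in aging and 1.099 ± 0.17 (adjusted p = 0.00205) in ALS. S100a16, a broadly expressed member, is ENSMUSG00000074457 at chr3:90537254-90543151 on the plus strand. Its level ran from 80.4 to 103 CPM (median 84.2) in young and from 94.3 to 122 CPM (median 113) in old libraries, and it was 102, 67.1 and 68.2 CPM in control and 141, 124 and 167 CPM in G93a libraries. It had the smallest change among the tested members in both comparisons, with 0.34 ± 0.06 (adjusted p = 0.000152) in aging, where 7 of 8 old libraries exceeded all young ones, and 0.86 ± 0.18 (adjusted p = 0.00742) in ALS, both by edgeR.

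S100a1 and S100a13 lie head to head, on opposite strands, with RefSeq starts 105 bases apart and exons that do not overlap. Their promoter windows share 204 bases, chr3:90514281-90514484. The S100a1 window, chr3:90514281-90514580 on the minus strand, is shown because it also holds the start of S100a13, and none of the searched motifs was in it or in that of S100a13.
S100a1: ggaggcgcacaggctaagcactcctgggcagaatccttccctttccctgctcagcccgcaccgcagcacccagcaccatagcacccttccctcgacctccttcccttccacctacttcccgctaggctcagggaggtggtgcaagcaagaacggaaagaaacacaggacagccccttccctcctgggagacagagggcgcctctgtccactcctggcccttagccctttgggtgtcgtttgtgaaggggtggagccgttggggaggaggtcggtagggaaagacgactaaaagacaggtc
This pair, which shares its upstream bases, rose by similar log2 amounts in ALS, 1.21 and 1.099, and by 0.67 and 0.49 in aging, a difference between members that was not tested. Such likeness was not particular to the pair. S100a10, farther along the chromosome, rose by 0.50 in aging, nearer to S100a13 than S100a1 was, though by 1.59 in ALS.

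S100a8 and S100a9 together form calprotectin, a major protein of the neutrophil cytosol. S100a8, ENSMUSG00000056054 at chr3:90668978-90670035, had 0 to 3 counts in young, 0 to 5 in old, 0 to 3 in control and 1 to 8 in G93a libraries. S100a9, ENSMUSG00000056071 at chr3:90692632-90695721, had 0 to 7, 0 to 5, 0 to 8 and 3 to 7. Both were near the floor of the depth in all groups, and no difference was detectable at this depth. With no filter on low counts, edgeR gave S100a8 an adjusted p of 0.477 in aging and 0.487 in ALS, and S100a9 0.722 and 0.749. With DESeq2 these were 0.571 and 0.626 for S100a8, and 0.767 and 0.84 for S100a9.

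The 12 neutrophil markers were read beside this pair. Ly6g had 0 counts in all 22 libraries, Elane 0 in the aging and Cxcr2 0 in the ALS libraries, and Ngp, Camp, Ltf, Mmp8, Retnlg and Mpo had at most 7 counts in any library. The list's summed CPM ran from 16.3 to 25.4 (median 21.6) in young and from 23.0 to 32.2 (median 29.9) in old libraries, and was 21.3, 24.7 and 18.6 in control and 90.9, 44.6 and 63.9 in G93a libraries. Its most abundant gene was Mmp9 in the young and control groups and, in the old and G93a groups, Csf3r, the receptor of granulocyte colony-stimulating factor, which microglia also express, with a log2 fold change of 1.57 ± 0.13 in aging (adjusted p = 2.62e-09) and 2.75 ± 0.21 in ALS (adjusted p = 0.000124) by edgeR. In the G93a libraries Csf3r made up 62.4, 35.4 and 49.5 CPM of the sum. Lcn2, which astrocytes also make, rose by 4.51 ± 0.87 in ALS (adjusted p = 0.00588) and was at -0.66 ± 0.49 in aging (adjusted p = 0.352). It had 2 to 12 counts in control and 25 to 276 in G93a libraries, and passed the filter in ALS by its G93a libraries. Mmp9 fell by 1.59 in ALS (adjusted p = 0.00269) and was at -0.22 in aging (adjusted p = 0.114), both by edgeR. Which cells held the Mmp9 transcripts was not tested. The part of these markers in the S100A results was not tested.

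The change in ALS was larger than the change in aging for most members when the difference itself was tested. In one edgeR fit of all 22 libraries, (G93a minus control) minus (old minus young) was positive for all 7 members tested and past an adjusted p of 0.05 for 6. Of the 14502 genes tested in this way, 11.6% differed with a more positive change in G93a and 14.2% with a more negative one. The difference in log2 fold change was 1.43 ± 0.37 for S100a6 (adjusted p = 0.0052), 1.299 ± 0.26 for S100a11 (adjusted p = 0.000579) and 1.07 ± 0.17 for S100a10 (adjusted p = 7.32e-05). S100a10, a modest change in aging, was thus among the members with the firmest difference between the experiments. For S100a13, S100a1 and S100a16 the difference was 0.58 ± 0.16, 0.51 ± 0.16 and 0.50 ± 0.15, with adjusted p of 0.00984, 0.0213 and 0.0174. For S100a4 it was 1.45 ± 0.65 with a 95% interval from 0.11 to 2.79 and an adjusted p of 0.104, which missed the threshold. Without the old library that stood apart, an alternative chosen after seeing the data, 6 members passed again, with S100a6 at 1.35 ± 0.26 (adjusted p = 0.000578, within a range of 0.000244 to 0.0267 over its alternatives), and S100a4 was at 1.35 ± 0.51 (adjusted p = 0.053, within a range of 0.053 to 0.227 over its alternatives).

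The calls of the smaller differences rested on single ALS libraries. Between 3 and 6 members passed when 1 ALS library was left out, with 3 left (S100a6, S100a10 and S100a11) without the G93a library that had the highest S100a6 level. S100a1, S100a13 and S100a16 lost the call there, at adjusted p of 0.0649, 0.058 and 0.0914. Library kit, sex and the ages of the mice differ between the experiments, so that their part in this difference cannot be told apart from that of the model.

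**Figure D2:**
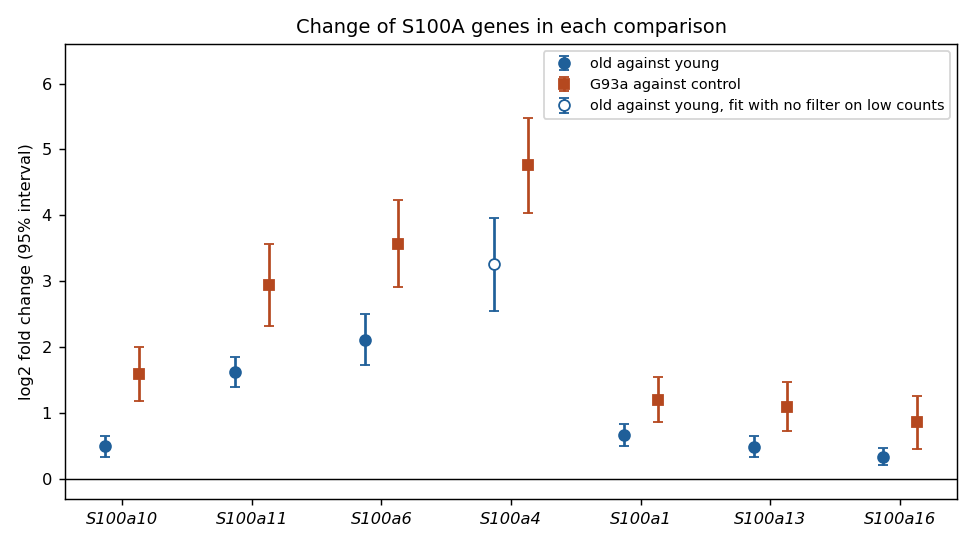
Log2 fold changes with 95% intervals (edgeR) of the 7 members that could be tested, in order of role on the horizontal axis, for old against young (circles) and G93a against control (squares); the open circle is S100a4 from the fit with no filter on low counts. All estimates lie above 0, and the G93a estimate is the higher one for each member.

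**Figure D3:**
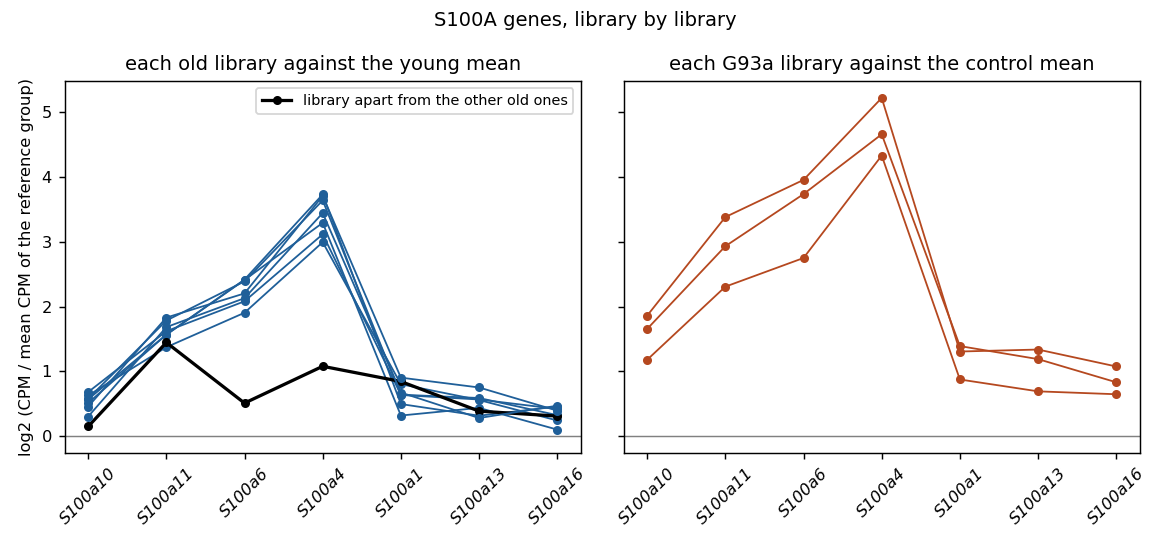
Each line is 1 library, giving the log2 ratio of its CPM to the mean CPM of the young group (left) or the control group (right) for 7 members on the horizontal axis. The black line is the old library that stands apart, which is low for S100a6 and S100a4 and lies among the others for S100a11, S100a1, S100a13 and S100a16.

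Levels of different members were compared per transcript length as FPKM, from the deposited log2 values, without a test. In young libraries S100a16 led with 96.3 ± 11.1 FPKM (SD, n = 8), followed by S100a1 with 91.4 ± 10.7, and the order of these neighbours held in only 5 of 8 libraries. S100a10 came next with 43.1 ± 4.63, below S100a1 in all 8, then S100a6 with 24.7 ± 5.48 and S100a13 with 23.5 ± 2.43, whose ranges overlapped. S100a11 followed with 11.2 ± 2.1 and S100a4 with 1.44 ± 0.823, and S100a9 (0.672 ± 0.584) and S100a8 (0.421 ± 0.259) came last. Among the 9 members young tissue thus held mostly S100a16 and S100a1, which took 32.8% and 31.3% of the summed FPKM of the 9 members, with S100a6 at 8.4%.

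In old libraries S100a1 led with 145 ± 14.9 FPKM (n = 8), above S100a16 at 118 ± 14.9 in all 8 libraries although their ranges overlapped. S100a6 moved up to 110 ± 37.5, with S100a16 above it in 5 of 8 libraries, then came S100a10 at 60.7 ± 8.86. Without the library that stood apart, where S100a6 was at 30.2 FPKM, S100a6 had 121.3 ± 20.8 and S100a16 121.1 ± 12.2 (n = 7), so that their order was lost. S100a11 at 34.3 ± 4.51 and S100a13 at 32.9 ± 3.82 were not separated by their spread, and S100a4 stood at 13.5 ± 4.78. S100a8 and S100a9 stayed at 0.651 ± 0.521 and 0.524 ± 0.475 FPKM, with overlapping ranges.

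In control libraries the order was S100a1 (86.3 ± 12.5 FPKM, n = 3), S100a16 (80.4 ± 19.4), S100a10 (37.9 ± 5.9), S100a13 (30.3 ± 2.96), S100a6 (29.0 ± 2.68), S100a11 (7.39 ± 0.822), S100a4 (1.55 ± 0.317), S100a9 (0.71 ± 0.742) and S100a8 (0.313 ± 0.297). Only S100a16 and S100a10, S100a6 and S100a11, and S100a11 and S100a4 were neighbours with separate ranges. In G93a libraries S100a6 came first with 441, 221 and 517 FPKM, above S100a1 (237, 169 and 231 FPKM) in all 3 libraries although the ranges overlapped. S100a16 at 151 ± 25.8 and S100a10 at 118 ± 27.0 followed, then S100a13 at 67.2 ± 14.7, S100a11 at 59.0 ± 21.2 and S100a4 at 40.3 ± 13.1. Here only S100a10 and S100a13, and S100a4 and S100a9, were neighbours with separate ranges. S100a9 and S100a8 were at 0.96 ± 0.296 and 0.687 ± 0.656 FPKM. The share of S100a6 in the summed FPKM of the members was 8.4% in young, 20.8% in old (22.6% without the library that stood apart), 10.7% in control and 36.7% in G93a libraries.

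The summed FPKM of the 9 members was 293 ± 21.9 in young, 516 ± 61.6 in old, 274 ± 41.3 in control and 1042 ± 285 in G93a libraries. Its lowest old value, 378, and its lowest G93a value, 729, lay above the highest young and control values, 329 and 321.

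**Figure D4:**
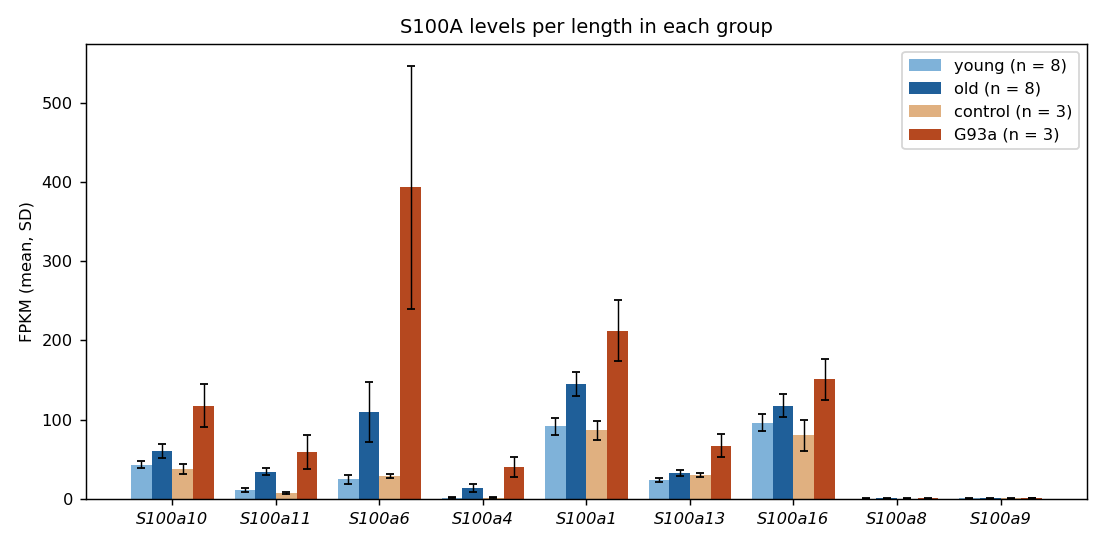
Bars give the mean FPKM of each member in each group, with error bars of 1 SD over the libraries (n in the legend), on a linear axis from 0. S100a6 is at 29.0 FPKM in control and is the highest member at 393 FPKM in G93a libraries, while the means of S100a8 and S100a9 are below 1 FPKM in all groups.

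All 9 members lie on chromosome 3 of GRCm38, in 2 stretches. The first, chr3:90511034-90695721, spans 184688 bases and holds 7 members and 6 other protein-coding genes, S100a14, S100a3, S100a2, Gm42674, S100a5 and S100a7a. The second, chr3:93520488-93564643, spans 44156 bases and holds S100a11 and S100a10 with no other protein-coding gene between them. A relation of change to position was not tested. In the first stretch S100a4 and S100a6, on either side of S100a5, had the largest log2 fold changes of the tested members in ALS, and S100a5 itself had 0 counts in all 22 libraries.

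Of the 6 other genes in the stretch only S100a7a passed the filter, and only in ALS. It had 7, 8 and 3 counts in control and 21, 11 and 16 in G93a libraries, a log2 fold change of 1.48 ± 0.46 (adjusted p = 0.0364, edgeR). As the control counts were this low, S100a7a passed the filter by its G93a libraries alone. S100a3, which lies next to S100a4, had at most 5 counts in young, 7 in old and 3 in control libraries, and 26, 7 and 13 in G93a libraries. It shares 144 exon bases with Gm42674 and was not tested. S100a14 had at most 5 counts and S100a2 had 0 in all libraries.

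**Figure D5:**
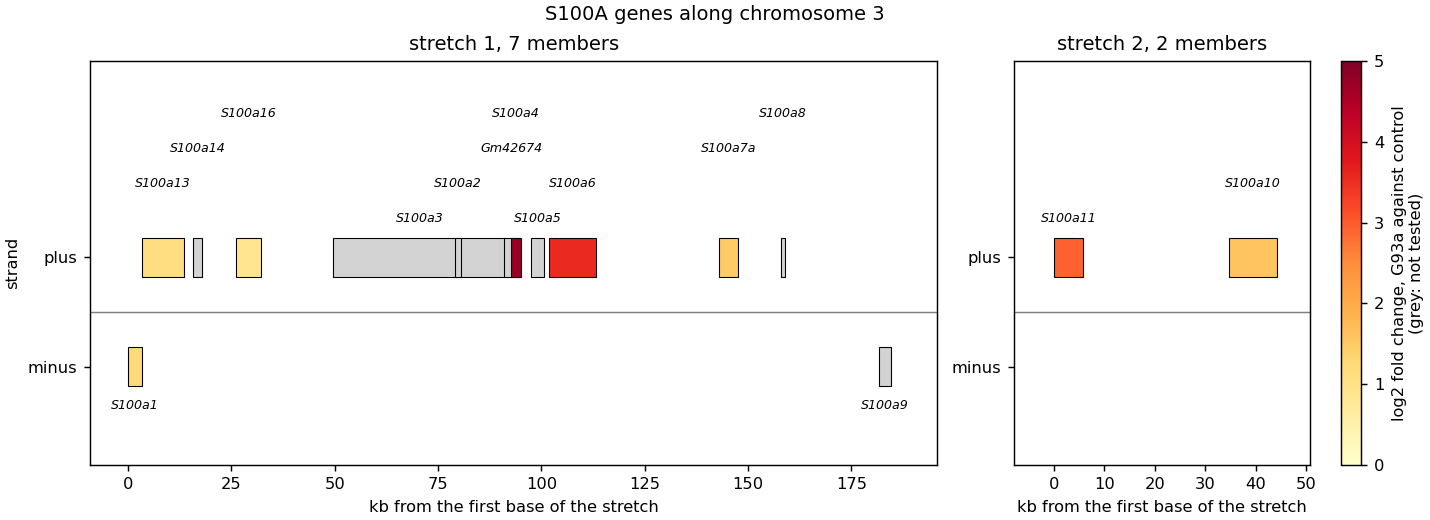
Protein-coding genes of the stretches that hold the members, drawn to scale in kb from the first base of each stretch, with the plus strand above and the minus strand below the line. Colour gives the log2 fold change in G93a against control (grey, not tested), from 0.86 for S100a16 to 4.76 for S100a4.

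Outside this locus, S100b is the family's most abundant gene in the spinal cord, with 514 ± 56.0 FPKM in young, 589 ± 57.6 in old, 525.9 ± 20.6 in control and 512 ± 17.2 in G93a libraries. It rose by a log2 fold change of 0.20 ± 0.06 in aging (adjusted p = 0.0206, edgeR), where 3 of 8 old libraries exceeded all young ones. In ALS its log2 fold change was -0.09 ± 0.09 (adjusted p = 0.45), with a difference between the experiments of -0.32 ± 0.12 (adjusted p = 0.0493). In 1 of 3 G93a libraries, S100a6 came near the FPKM level of S100b, at 517 against 531.5. Of the 7 genes in the list of other S100 genes (S100a3, S100a5, S100a7a, S100a14, S100b, S100g and S100z), to which S100a2 of the locus does not belong, 1 was tested in aging and 2 in ALS. S100g had at most 2 counts and S100z had 0 in all libraries.

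For each member tested in aging, the 3 other genes most like it were found by Pearson's r of log2 CPM over the 16 aging libraries after subtracting each group's mean. Genes of a library share its depth and RNA, and r is given as a description. The r within young or within old libraries comes from the same libraries that picked the genes. For S100a6 they were Nr2f6, Echs1 and Vim, the intermediate filament gene of astrocytes and other glia, with r of 0.96, 0.951 and 0.937. Within the 8 young libraries r was 0.935, 0.782 and 0.679, and within the 8 old ones 0.967, 0.989 and 0.986. The old value leaned on the library that stood apart, without which r over 15 libraries was 0.898, 0.832 and 0.733. Vim rose as S100a6 did, by a log2 fold change of 2.29 in aging (adjusted p = 2.74e-11) and 3.79 in ALS (adjusted p = 0.000202) by edgeR. Nr2f6 and Echs1 had changes of 0.15 and 0.08 in aging (adjusted p = 0.441 and 0.582). In ALS these were -0.02 and 0.26 (adjusted p = 0.913 and 0.0551).

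For S100a11 the most like genes were Arhgdib, Armc2 and Kcnh5 (r = 0.845, 0.835 and 0.794; young 0.931, 0.965 and 0.876; old 0.644, 0.483 and 0.707). Arhgdib, known from blood-derived cells, rose by 1.17 in aging (adjusted p = 3.93e-08) and 2.26 in ALS (adjusted p = 0.00051) on the log2 scale by edgeR. Armc2 was at -0.23 and 0.64 (adjusted p = 0.394 and 0.0694), and Kcnh5 at -0.33 and -0.41 (adjusted p = 0.145 and 0.282). For S100a1 they were Pak7, Mmab and B2m (r = 0.927, 0.907 and 0.902, with 0.956, 0.873 and 0.945 in young and 0.904, 0.931 and 0.87 in old libraries). B2m, the light chain of MHC class I, rose by 1.51 in aging (adjusted p = 1.55e-10) and 2.11 in ALS (adjusted p = 0.000182). Mmab was at 0.14 and -0.30 (adjusted p = 0.255 and 0.0727). Pak7, a neuronal kinase, fell by 0.41 in aging (adjusted p = 0.00109) and by 0.63 in ALS (adjusted p = 0.0275), so that a gene could follow S100a1 within groups and move the other way between them.

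For S100a10 they were Psmg2, Pdlim1 and Col11a2 (r = 0.87, 0.861 and 0.858, with 0.781, 0.895 and 0.741 in young and 0.955, 0.835 and 0.938 in old libraries). Without the library that stood apart, r over 15 libraries was 0.813, 0.806 and 0.778. For S100a13 they were Ubald1, Rps6kb2 and Zfyve19 (r = 0.797, 0.782 and 0.761, with 0.704, 0.673 and 0.79 in young and 0.87, 0.868 and 0.778 in old libraries). For S100a16 they were Kctd5, Rhob and Ndufb9 (r = 0.864, 0.854 and 0.84, with 0.941, 0.908 and 0.834 in young and 0.785, 0.799 and 0.847 in old libraries). Of these 9 genes, Col11a2 fell by 0.47 (adjusted p = 0.000516) and Ndufb9 rose by 0.25 (adjusted p = 0.000514) in aging, and Kctd5 rose by 0.91 (adjusted p = 0.00694) in ALS, on the log2 scale by edgeR.

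Binding partners and receptors of the S100A proteins moved in both directions. Of 33 genes, 25 were tested in aging with 8 higher and 5 lower, and 29 in ALS with 12 higher and 8 lower, beside 13.5% and 12.9% of all genes in aging and 18.4% and 15.5% in ALS. Il1a, Ager, Ly96 and Cd36 missed the filter in aging, and may have passed it in ALS by their G93a libraries alone. The median log2 fold change of the list was -0.08 in aging and -0.0073 in ALS. Among the annexins, Anxa2, the partner of S100a10, rose by 0.54 ± 0.08 (adjusted p = 1.68e-05) and 1.39 ± 0.19 (adjusted p = 0.00116) by edgeR. Anxa11 rose in aging only as tested (0.29 ± 0.06, adjusted p = 0.00178, and 0.24 ± 0.16, adjusted p = 0.29, in ALS), a difference of -0.08 ± 0.14 that did not pass (adjusted p = 0.724). Anxa6 had 0.02 ± 0.05 in aging (adjusted p = 0.788) and fell by 0.47 in ALS (adjusted p = 0.00324), and Anxa1 was not tested.

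Of the 12 partners of S100a10 at the membrane and in the nucleus, 9 were tested. Ahnak, the large scaffold that binds S100a10 with Anxa2, rose by 0.70 ± 0.12 (adjusted p = 0.000138) and 1.35 ± 0.22 (adjusted p = 0.00305), and Plat, the tissue plasminogen activator, by 0.68 ± 0.10 (adjusted p = 2.06e-05) and 1.73 ± 0.19 (adjusted p = 0.000445). The serotonin receptor Htr1b, which S100a10 helps to the cell surface, moved the other way and fell by 0.40 (adjusted p = 0.00951) and by 0.89 (adjusted p = 0.0135). In ALS the channels Kcnk3 and Asic1 fell as well, by 0.72 (adjusted p = 0.00587) and by 0.67 (adjusted p = 0.00469), and in aging Hltf fell by 0.30 (adjusted p = 0.00183). For Htr4, Trpv6 and Dlc1 the log2 fold changes were -0.29, -0.45 and -0.04 in aging and -0.42, -0.66 and -0.14 in ALS, with adjusted p from 0.201 to 0.689, and Plg, Scn10a and Trpv5 were not tested.

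The partners of S100a6, S100a4, S100a13 and S100a1 gave no common direction. Cacybp, a partner of S100a6, was at -0.11 in aging (adjusted p = 0.365) and fell by 0.34 in ALS (adjusted p = 0.0184), and Sugt1 was at -0.08 and -0.15 (adjusted p = 0.271 and 0.231). The S100a4 partner Myh9 was at 0.03 in aging (adjusted p = 0.763) and rose by 0.75 in ALS (adjusted p = 0.00496). Trp53 rose by 0.35 and 0.69 (adjusted p = 0.00127 and 0.0049), and Ppfibp1 fell by 0.18 in aging and rose by 0.57 in ALS (adjusted p = 0.0203 and 0.0183), a difference of 0.72 ± 0.13 (adjusted p = 0.00018). Fgf1, exported with S100a13, was at -0.12 in aging (adjusted p = 0.359) and fell by 0.62 in ALS (adjusted p = 0.00192), while Il1a, tested in ALS alone, rose by 2.24 (adjusted p = 0.00418) and Syt1 was at -0.17 and -0.34 (adjusted p = 0.0569 and 0.0935). The S100a1 partners Atp2a2 and Ryr2 went against S100a1, with falls by 0.19 and by 0.27 in aging (adjusted p = 0.00306 and 0.00128) and by 0.62 and by 0.84 in ALS (adjusted p = 0.00564 and 0.00762), and Ryr1 was at -0.16 and -0.15 (adjusted p = 0.673 and 0.783).

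Receptors of extracellular S100 proteins were the part of this list that rose most by the median log2 fold change of its tested genes. In ALS 5 of 6 were higher by edgeR, namely Cd36 at 3.35 ± 0.65 (adjusted p = 0.0059), Cd14 at 2.86 ± 0.30 (adjusted p = 0.00035), Tlr4 at 2.55 ± 0.33 (adjusted p = 0.00103), Ager at 2.21 ± 0.39 (adjusted p = 0.00403) and Ly96 at 1.94 ± 0.43 (adjusted p = 0.0103). Bsg was at 0.04 ± 0.10 (adjusted p = 0.783). In aging Cd14 rose by 1.83 ± 0.15 (adjusted p = 5.28e-09), Tlr4 by 1.096 ± 0.25 (adjusted p = 0.0022) and Bsg by 0.16 ± 0.05 (adjusted p = 0.0105), and the other 3 did not pass the filter. Those 3, Ager, Ly96 and Cd36, may have passed it in ALS by their G93a libraries alone, which favours a higher value there. Cd14 and Tlr4 thus rose in both comparisons, in tissue in which the transcripts of S100a8 and S100a9 were near 0 counts.

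Some lists of cell type markers moved with the S100A genes, that of microglia in both comparisons and that of astrocytes in ALS. In aging the astrocyte markers went both ways. The part of these lists in the S100A results was not tested. Of 7 microglia markers, 5 rose in aging and 4 in ALS by edgeR. Their summed CPM ran from 328 to 364 (median 343) in young and from 452 to 652 (median 614) in old libraries, and was 400, 348 and 342 in control and 1438, 944 and 1207 in G93a libraries. The lowest old value was that of the library that stood apart and the lowest G93a value that of the library lowest for S100a6. P2ry12, a marker of resting microglia named here, like Lcn2 and Mmp9 above, after its values were seen, was at 0.05 ± 0.12 and 0.13 ± 0.10 (adjusted p = 0.814 and 0.363).

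Of 7 astrocyte markers, 3 rose and 1 fell in aging, and 5 rose in ALS. Their summed CPM ran from 7238 to 7845 (median 7704) in young and from 8135 to 8953 (median 8688) in old libraries, and was 7274, 6687 and 6826 in control and 19086, 12349 and 16773 in G93a libraries. The most abundant was Slc1a2 in the young and control groups and Gfap in the old and G93a groups. Gfap was at 0.69 ± 0.08 in aging (adjusted p = 1.31e-06) and 2.40 ± 0.24 in ALS (adjusted p = 0.000308) by edgeR. In aging the list's median log2 fold change was 0.06. Its mean sum went from 7628 CPM in young to 8615 in old libraries, and the mean of Gfap from 1843 to 2977. The means of Slc1a2, Aqp4 and Gja1 were lower in old libraries, and those of Aldh1l1, Slc1a3 and Aldoc higher. The libraries lowest within the old and the G93a group were again the same ones, the old one through its low Gfap. Of 4 ependyma markers, 1 of 3 tested rose in aging and 3 of 3 in ALS, with summed CPM from 36.9 to 48.8 in young, 44.6 to 55.5 in old, 33.4 to 38.7 in control and 48.0 to 72.4 in G93a libraries and Foxj1 as the most abundant. Of 7 markers of monocytes and border macrophages, 2 of 3 tested rose in ALS and none could be tested in aging. The list's most abundant gene was Cd163 in the young and control groups and Ms4a7 in the old and G93a groups. Ms4a7 had 0 to 2 counts in control and 34 to 125 in G93a libraries, and 0 to 1 in young and 0 to 26 in old libraries. It was among the markers that rose in ALS, and it passed the filter there by the G93a libraries alone.

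Of the remaining lists, the 5 tested of 7 erythroid genes, led by Hba-a2, had adjusted p from 0.114 to 0.469 in aging and from 0.644 to 0.982 in ALS. T cell genes, led by Cd8a in the old and by Cd3e in the other groups, were too low to test, with summed CPM of 0.194 to 0.707 in young, 0.729 to 2.56 in old, 0.154 to 0.854 in control and 1.102 to 1.34 in G93a libraries. Skeletal muscle genes, led by Acta1, summed to at most 3.5 CPM with Myh4 at 0 in the ALS libraries. Of 6 fibroblast and meningeal markers, led by Col1a2, the 5 tested in aging had adjusted p from 0.0822 to 0.996, and 1 of 6 rose in ALS. Of the Schwann cell markers, led by Pmp22, 1 of 2 tested rose in aging and 2 of 3 in ALS. Of 6 oligodendrocyte markers, led by Mbp, 1 rose and 2 fell in aging, and in ALS the adjusted p ran from 0.0727 to 0.838. Of 5 endothelial markers, led by Flt1, 2 fell in aging and 1 in ALS. Of 4 neuron markers, led by Snap25, 1 rose in aging and 3 fell in ALS. Of 5 motor neuron markers, led by Slc5a7, 3 fell in ALS and the adjusted p in aging ran from 0.206 to 0.898. Of 4 Hox genes of spinal cord position, led by Hoxc8, 1 fell in aging and the adjusted p in ALS ran from 0.0556 to 0.524. Markers of neurons, motor neurons, oligodendrocytes and astrocytes and the Hox genes were thus present in all groups, and those of T cells and skeletal muscle were near 0.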

How the data were processed

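Expected counts per gene, estimated by the authors with RSEM from reads on mm10, with SAMtools 1.3, were used as deposited and rounded to whole numbers. Levels between genes used the log2 (FPKM+1) values deposited by the authors, turned back into FPKM. The strand setting is not given in the sources used here. The columns carry the group and no replicate number. Of 21995 genes, 21919 were matched to GENCODE M21 by identifier and 76 were not.

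The filter on low counts was filterByExpr of edgeR (minimum count 10, minimum total 15). Aging and ALS were each tested in their own libraries, and their difference in one fit of all 22, by edgeR quasi-likelihood tests with TMM library sizes. Every adjusted p in the text comes from these tests unless another is named, adjusted after Benjamini and Hochberg for the full set of genes tested, and ± after a log2 fold change is its SE. This SE was worked back from the test, as the absolute log2 fold change over the square root of the quasi-likelihood F statistic. The 95% intervals rest on it. CPM used TMM library sizes. The steps were tested on simulated data.

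The rule for the genes to name gave the 9 members, the tested genes of the lists of other S100 genes and of partners and receptors, the 3 genes most like each member tested in aging, and of the cell type marker lists the most abundant gene and defining markers at 0. Genes of these lists that were not tested, other genes of the locus and some other markers are named outside this rule, chosen after their values were seen. One gene that this rule names is not reported here. The members and lists were chosen with earlier results of these data known. Tests were run with edgeR 4.0.16, DESeq2 1.42.0 and limma 3.58.1 in R 4.3.3. Tables and figures were made with pandas 2.3.3 and with matplotlib 3.10.9, under Python 3.11.15.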

Additional observations from a re-analysis of the deposited data

Results flagged for a closer look

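In 28 groups of 8 libraries, a highest or lowest value far from the other libraries was looked for with Dixon's test, and 3 were found. The groups were young and old for the CPM of each member and of S100b, and for total counts. They also covered the marker sums of microglia, astrocytes and neutrophils. Chance flags about 1 in 20 groups. S100a1 had 70.3 CPM in 1 young library, where the other 7 had 48.1 to 55.7. S100a13 had 21.5 CPM in another young library, where the other 7 had 15.6 to 16.8. S100a6 had 16.8 CPM in 1 old library, the one described above as standing apart, where the other 7 had 44.3 to 63.2. The cause of these values was not tested.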

How the results depend on the processing

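All tested members kept their direction and their side of the threshold in aging (138 comparisons with an alternative) and in ALS (83). The alternatives were DESeq2, RLE size factors, the filters, one fit of all libraries, limma on the FPKM values and leaving out each library. In aging they also held a permutation of the group labels on mean log2 CPM, whose p was not adjusted. With a log2 fold change beyond 1 required as well, 2 members passed in aging and 6 in ALS. With at least 10 counts in every library, S100a4 was not tested in ALS and 6 members passed, a change from fewer genes tested.

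For the difference between ALS and aging, 3 to 6 members passed when 1 ALS library was left out, and the cause was not tested. S100a1 lost the call without either of 2 control libraries (adjusted p = 0.0807 and 0.0591, edgeR) and without 1 G93a library (0.0944). S100a16 lost it without the same 2 control libraries (0.0862 and 0.0811). The losses without another G93a library are given in the report. In all, 8 of 36 such values of the 6 members lost the call.

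Over all genes, 4877 passed in ALS, against 2353 to 6648 with 1 library left out and 1395 with the fold threshold. In aging 3600 passed, against 2306 with limma and 303 with the fold threshold. For the difference 3745 passed, against 2381 to 4938 with 1 library left out.

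With a pseudocount of 0.1 in place of 1, the difference of mean log2 FPKM of S100a4 was 3.44 against 2.57 in aging and 4.58 against 3.98 in ALS, and in ALS that of S100a8 was 0.98 against 0.32 and that of S100a9 1.07 against 0.28, all at low levels. No paired analysis was possible because the columns carry no replicate numbers. Depth limits what can be said of S100a8 and S100a9, with at most 8 counts in any library.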

Other observations

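Of the 1223 genes higher in G93a with a log2 fold change over 1, 1092 (89.3%) had their lowest G93a value in the same library, which was also the lowest of the 3 for all 7 members tested. Of the 297 such genes in old mice, 220 (74.1%) had their lowest old value in 1 of the 8 libraries.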
